A study of Homo sapiens with 6 samples.

Results

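The AKT and PI3-kinase genes AKT1, AKT2, PIK3CA, PIK3CB, PIK3CD, PIK3R1, PIK3R2, PDPK1 and PHLPP1 were examined by RNA-seq. They were chosen by symbol, and all 9 were found, each in 1 row, among the 24462 gene symbols counted. The libraries came from 6 cultures labelled as PC3, an established androgen-independent prostate cancer line. Of these, 3 were transfected with a non-targeting siRNA (si-Control) and 3 with siRNA against CITED2 (si-CITED2), each at 80 nM for 72 h, with no other agent or engineered allele given. CITED2 is a transcriptional co-regulator that binds p300. One part of the study asks how CITED2 bears on AKT, and it proposes that CITED2 promotes the translation of AKT mRNA through nucleolin. The comparison here addresses only mRNA levels, for AKT and for the enzymes around it.

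Class I PI3-kinases are recruited to activated growth factor receptors and phosphorylate the membrane lipid PIP2 to PIP3. PIP3 brings AKT to the membrane, where PDPK1 phosphorylates its activation loop and mTOR complex 2 its tail. PHLPP1 removes the phosphate from the tail of AKT. The pathway is often active in prostate cancer.

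The total count ranged from 19508925 to 28936374 per library, so that 3 counts, the smallest level taken as detectable, were 0.104 to 0.154 CPM, the count relative to library size (for counting error only). CITED2 was the gene targeted. Its normalised count (count scaled to a common library size) was 858.6, 892.0 and 773.0 in the 3 si-Control libraries and 1084.3, 921.1 and 983.9 in those labelled si-CITED2. The mRNA thus did not fall with its siRNA (log2 fold change 0.24, SE 0.07, adjusted p = 0.036 by edgeR's quasi-likelihood test), and the call was lost when si-Control replicate 1 or 3 or si-CITED2 replicate 1 or 3 was left out (0.17 to 0.25). The study checked the knockdown on the protein, by immunoblot, which is not analysed here and which mRNA counts do not measure. Groups are given by their labels, and every direction below rests on these labels. The epithelial markers KRT8, KRT18, KRT19 and EPCAM were all counted, with a summed level of 1670 to 1780 CPM in si-Control and 1840 to 2030 CPM in the libraries labelled si-CITED2; 2 of the 4 were higher and 1 was lower there. Of 3 markers of androgen-responsive prostate cells (KLK3, KLK2 and TMPRSS2), KLK2 had no count in any library, KLK3 had 2 counts in all, and the summed level was 0.263 to 0.302 CPM in si-Control and 0.0403 to 0.0923 CPM in the libraries labelled si-CITED2. The leukocyte list reached 137 to 146 CPM and 123 to 146 CPM, nearly all from CD68, with PTPRC at 0 to 2 counts. The endothelial list (0.503 to 0.827 CPM against 0.524 to 0.616 CPM) had no gene that passed the filter on low counts, and in the fibroblast list (5.39 to 5.67 CPM against 6.05 to 7.29 CPM) only COL1A1 passed it and was not called. Of 4 erythroid markers, HBB and HBA1 were higher in the libraries labelled si-CITED2 (summed level 2.63 to 3.59 CPM against 0.0376 to 0.104 CPM) and AHSP had no count. The part of these markers in the results on AKT and PI3-kinase was not tested.

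PC3 is known as a line that has lost CTNNA1, the gene of alpha-catenin. CTNNA1 was nonetheless counted in every library. Its normalised count was 10739.1 to 11526.2 in si-Control and 12385.0 to 12896.3 in the libraries labelled si-CITED2 (log2 fold change 0.20, SE 0.05, adjusted p = 0.0061 by edgeR). Such counts in both groups stood in contrast to the known loss. Whether the label PC3 is right was not tested, and the cells are called here by their label only. Gene-level counts do not show which exons the reads came from.

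Of the 9 members, all passed the filter on low counts, 2 were higher (PIK3CD and PIK3R2) and 1 was lower (PHLPP1) in the libraries labelled si-CITED2. The adjusted p threshold was 0.05 over 16314 genes. Over all of these genes 9.36% were called higher, 8.09% lower and 17.4% in either direction, beside 33.3% of the members, which are too few to be set apart from this background by their count. The groups did not overlap for 4 members (PIK3CD, PIK3R2 and PIK3CA, higher, and PHLPP1, lower), against 32.5% of all genes (16.4% higher and 16.1% lower). The median log2 fold change of the members was 0.03 and that of all genes tested -0.00137. AKT1 and AKT2 overlapped between the groups. A change in RNA per cell and a change in the share of cells that make it cannot be told apart in such bulk samples.

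**Figure D1:**
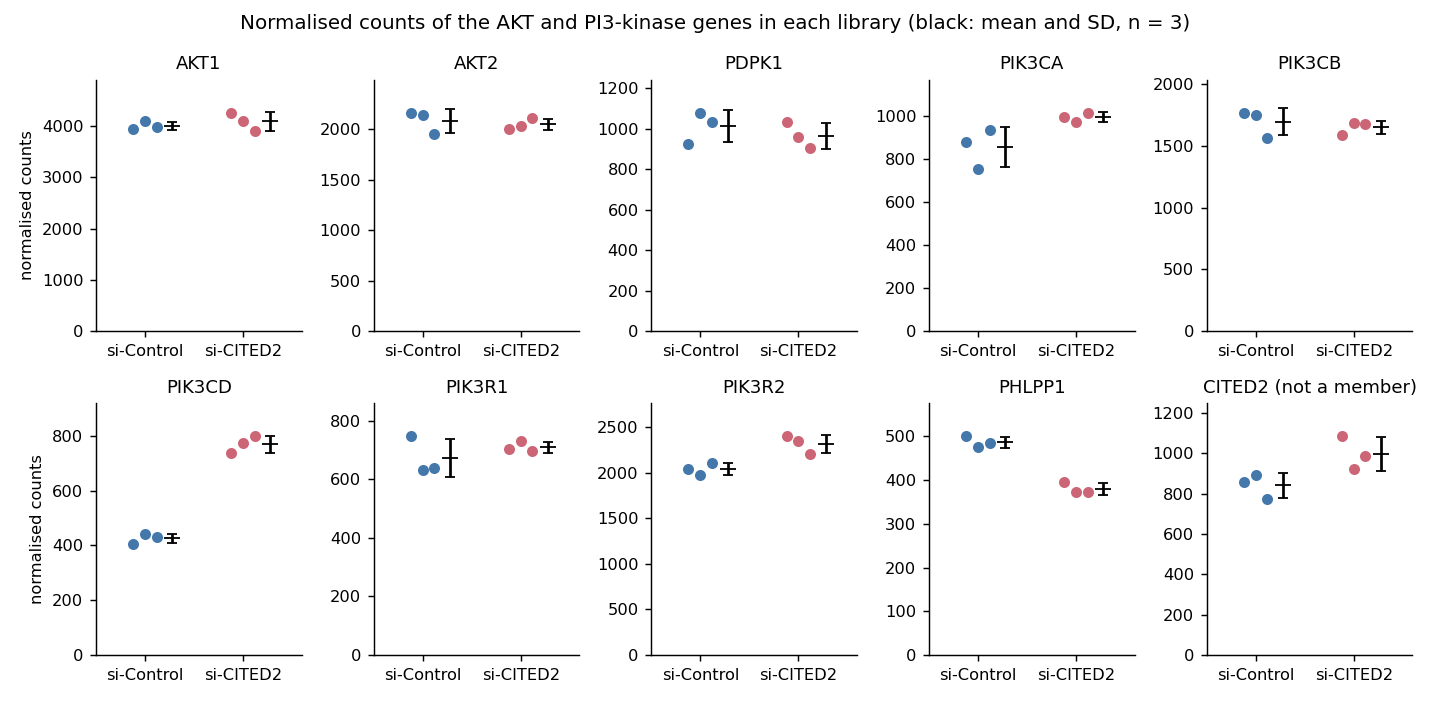
Normalised counts (vertical axis, from 0) of the 9 members and of CITED2 in the 3 si-Control libraries (blue) and the 3 libraries labelled si-CITED2 (red), with the mean and SD in black. PIK3CD sits at 406.2 to 440.4 in si-Control and at 735.8 to 798.7 in si-CITED2, while the points of AKT1, AKT2, PDPK1, PIK3CB and PIK3R1 overlap.

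AKT1 and AKT2 encode closely related serine/threonine kinases. The coding sequences of AKT1 and AKT2 are 80.0% identical at aligned positions, with a longest identical run of 32 bases. None of the 50-base windows of the AKT1 or AKT2 transcript occurs in a transcript of another gene. The stretch that encodes the activation loop, the site at which PDPK1 phosphorylates AKT, is shown because it is the step that joins the members, and because it shows how far the mRNAs differ even where the protein is the same. The 30 bases are from the GENCODE 29 transcripts AKT1-208 and AKT2-206, at coding positions 919 to 948 and 922 to 951, and capitals mark the 6 positions that differ between both genes.
AKT1: aaGaccttTtgCggCacAccTgagtacctg
AKT2: aaAaccttCtgTggGacCccGgagtacctg

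AKT1 (ENSG00000142208.16) lies on the minus strand of chromosome 14 (104769349 to 104795751, GRCh38, from GENCODE 29, as are all positions given here). Its normalised count was 3942.6, 4094.7 and 3991.1 in si-Control and 4264.5, 4104.8 and 3905.8 in the libraries labelled si-CITED2. The lowest and the highest value both came from libraries labelled si-CITED2, so the groups overlapped. The mean was 4009.5 ± 77.7 (SD, n = 3) against 4091.7 ± 179.7 (SD, n = 3), a log2 fold change of 0.03 (SE 0.05, 95% interval -0.08 to 0.13, adjusted p = 0.761 by edgeR).

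AKT2, on the minus strand of chromosome 19 (40230317 to 40285536), is the isoform best known for its part in the insulin response. It was counted at 2167.7, 2144.0 and 1950.8 in si-Control and at 2004.8, 2036.1 and 2113.4 in the libraries labelled si-CITED2. The 3 si-CITED2 values lay within the range of the controls. The log2 fold change was -0.03 (SE 0.06, 95% interval -0.15 to 0.09, adjusted p = 0.809 by edgeR). The ratio of AKT1 to AKT2 counts, which does not depend on library size, was 1.819, 1.91 and 2.046 in si-Control and 2.127, 2.016 and 1.848 in the libraries labelled si-CITED2, with overlap (exact permutation test, two-sided, p = 0.5, adjusted p = 0.5 over 4 ratios; 3 samples against 3 allow no p below 0.1).

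Levels of different genes were compared per kilobase of exonic length (GENCODE 29). Per length, AKT1 held 71.0% ± 1.2 (SD, n = 3) of the counts of AKT1 and AKT2 in si-Control and 71.7% ± 1.4 in the libraries labelled si-CITED2. The AKT1 shares overlapped between the groups (69.86% to 72.28% and 70.2% to 73.05%).

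The study measured AKT mRNA by RT-qPCR relative to GAPDH, a glycolytic enzyme used as a reference gene, so the same ratio was taken from the counts. AKT1 over GAPDH was 0.05804, 0.06604 and 0.06462 in si-Control and 0.07017, 0.07641 and 0.07124 in the libraries labelled si-CITED2. All 3 si-CITED2 ratios were the higher ones, with a difference of 0.21 on the log2 scale, or 15.5% (exact permutation test, two-sided, p = 0.1, the smallest possible). GAPDH itself was lower in the libraries labelled si-CITED2 (61765.7 to 67928.3 normalised counts in si-Control against 53723.0 to 60770.7, log2 fold change -0.18, SE 0.05, adjusted p = 0.032 by edgeR). The GAPDH call was lost in 4 of the 6 fits that left out a library (-0.13 to -0.20 without si-Control replicate 1 or 2 or si-CITED2 replicate 2 or 3). The sign of the AKT1 ratio depended on the reference gene. With 6 other usual reference genes, chosen after the GAPDH value was seen, the difference was -0.63 for ACTB and -0.19 for YWHAZ, both without overlap and lower, and 0.15 for TBP, 0.09 for HPRT1, -0.03 for B2M and -0.08 for PGK1, all with overlap. ACTB, cytoplasmic actin, rose by a log2 fold change of 0.66 (SE 0.05, adjusted p = 6.39e-08 by edgeR) and YWHAZ, a 14-3-3 protein, by 0.22 (SE 0.04, adjusted p = 0.0016 by edgeR).

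PDPK1, the kinase that phosphorylates the activation loop of AKT, lies on chromosome 16 (2537964 to 2603188). Its normalised count was 926.1, 1080.4 and 1034.3 in si-Control and 1033.3, 958.3 and 903.9 in the libraries labelled si-CITED2. The groups overlapped (log2 fold change -0.07, SE 0.07, 95% interval -0.22 to 0.08, adjusted p = 0.571 by edgeR). Of the 50-base windows of PDPK1, 13.9% also occur in its near-identical copy PDPK2P, so its count is uncertain.

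**Figure D2:**
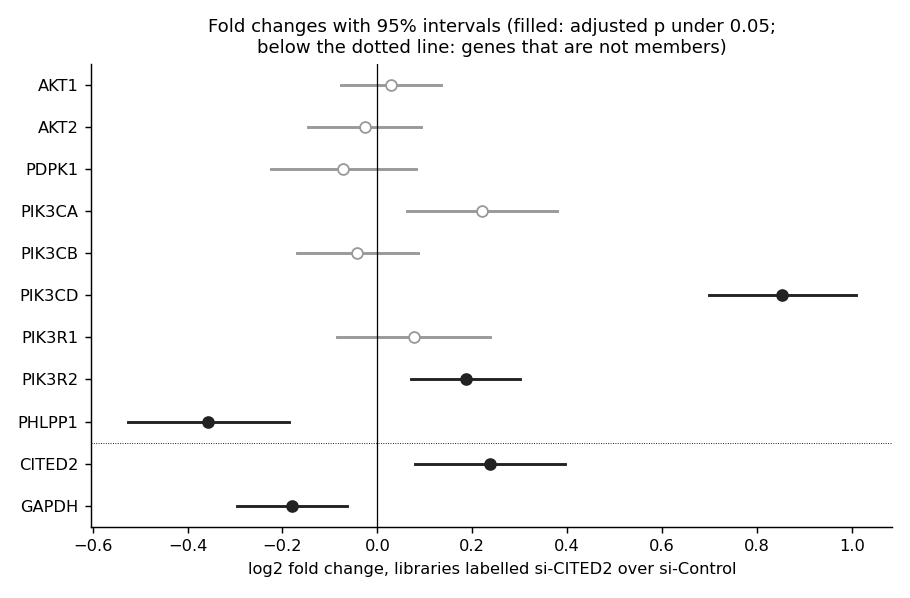
Log2 fold changes (horizontal axis, libraries labelled si-CITED2 over si-Control) with 95% intervals for the 9 members and, below the dotted line, CITED2 and GAPDH; filled points have an adjusted p under 0.05. PIK3CD at 0.85 and PHLPP1 at -0.36 stand farthest from 0 among the members, and the intervals of AKT1, AKT2, PDPK1, PIK3CB and PIK3R1 include 0.

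The catalytic subunits p110α, p110β and p110δ are encoded by PIK3CA, PIK3CB and PIK3CD. PIK3CB, which also responds to G-protein-coupled receptors, lies on the minus strand of chromosome 3 (138652699 to 138834938). It was counted at 1768.7, 1750.3 and 1566.1 in si-Control and at 1587.1, 1682.6 and 1675.2 in the libraries labelled si-CITED2. The si-CITED2 values lay within the range of the controls (log2 fold change -0.04, SE 0.06, 95% interval -0.17 to 0.08, adjusted p = 0.709 by edgeR).

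PIK3CD, known best from leukocytes, lies on chromosome 1 (9651732 to 9729114). Its raw counts were 457, 547 and 366 in si-Control and 606, 809 and 729 in the libraries labelled si-CITED2. The normalised counts were 406.2, 440.4 and 430.6 against 735.8, 773.0 and 798.7. Each si-CITED2 value exceeded every control value, from a mean of 425.7 ± 17.6 (SD, n = 3) to 769.2 ± 31.6 (SD, n = 3). PIK3CD rose by a log2 fold change of 0.85 (SE 0.07, 95% interval 0.70 to 1.01, adjusted p = 3.01e-07 by edgeR), which is 1.81-fold, and 2.21% of the genes tested had a larger rise. Leaving out each library in turn gave 0.82 to 0.88, called in 6 of 6 fits. CLSTN1 on the other strand, which shares 89 of the 5673 exonic bases of PIK3CD, rose too (log2 fold change 0.40, SE 0.05, adjusted p = 1.70e-05 by edgeR), and its part in the PIK3CD count was not tested. Of the 4 leukocyte markers, PTPRC had 2, 2 and 1 counts in si-Control and 0 in each library labelled si-CITED2, while LYZ had 10, 20 and 27 counts against 21, 36 and 40. CD68 had 2622 to 3947 counts over the 6 libraries and CD3E 0 to 1. Only CD68 and LYZ passed the filter on low counts, and neither was called. The part of these 4 markers in the PIK3CD count was not tested.

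PIK3CA, the subunit most often mutated in carcinomas, lies on chromosome 3 (179148114 to 179240093). It was counted at 880.8, 756.0 and 934.2 in si-Control and at 998.1, 971.7 and 1016.7 in the libraries labelled si-CITED2. The values did not overlap, but si-Control replicate 2 stood below the other controls. With an adjusted p of 0.053 by edgeR (log2 fold change 0.22, SE 0.07, 95% interval 0.06 to 0.38) PIK3CA did not pass the threshold. Its value was 0.13 without si-Control replicate 2 (adjusted p = 0.273 by edgeR) and 0.28 without si-Control replicate 3, where it passed (adjusted p = 0.021). It also passed with the replicate number as a block (adjusted p = 0.047 by edgeR), with no filter beyond a non-zero count (0.034), with at least 10 counts in every sample (0.049) and scaled to GAPDH (0.40, adjusted p = 0.0025), and it did not pass by DESeq2 (adjusted p = 0.075). KCNMB3 on the other strand shares 3403 of its 9176 exonic bases; it was counted at 299.9 to 368.3 with overlap between the groups.

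The ratio of PIK3CA to PIK3CD counts was 2.168, 1.717 and 2.169 in si-Control and 1.356, 1.257 and 1.273 in the libraries labelled si-CITED2. It was lower in 3 of 3 of the latter, by 0.63 on the log2 scale (exact permutation test, two-sided, p = 0.1, the smallest possible; adjusted p = 0.4 over 4 ratios). PIK3CA over PIK3CB was 0.498, 0.4319 and 0.5965 against 0.6289, 0.5775 and 0.6069, with overlap (exact permutation p = 0.2, adjusted p = 0.4). Per exonic length, PIK3CB held 62.6% ± 2.7 (SD, n = 3) of the counts of the 3 catalytic genes in si-Control and 53.0% ± 0.6 in the libraries labelled si-CITED2, PIK3CD 16.6% ± 1.0 and 26.1% ± 0.4, and PIK3CA 20.7% ± 2.5 and 20.9% ± 0.7. PIK3CB had the largest share in each of the 6 libraries. Per exonic length, PIK3CA was above PIK3CD in each si-Control library and below it in each library labelled si-CITED2. By raw count PIK3CA stayed above PIK3CD in each of the 6 libraries (ratios of 1.257 to 2.169), so the change of order rests on the division by length. The exonic overlap of PIK3CA with KCNMB3, given above, makes its level per length uncertain, and the part of this overlap was not tested.

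**Figure D3:**
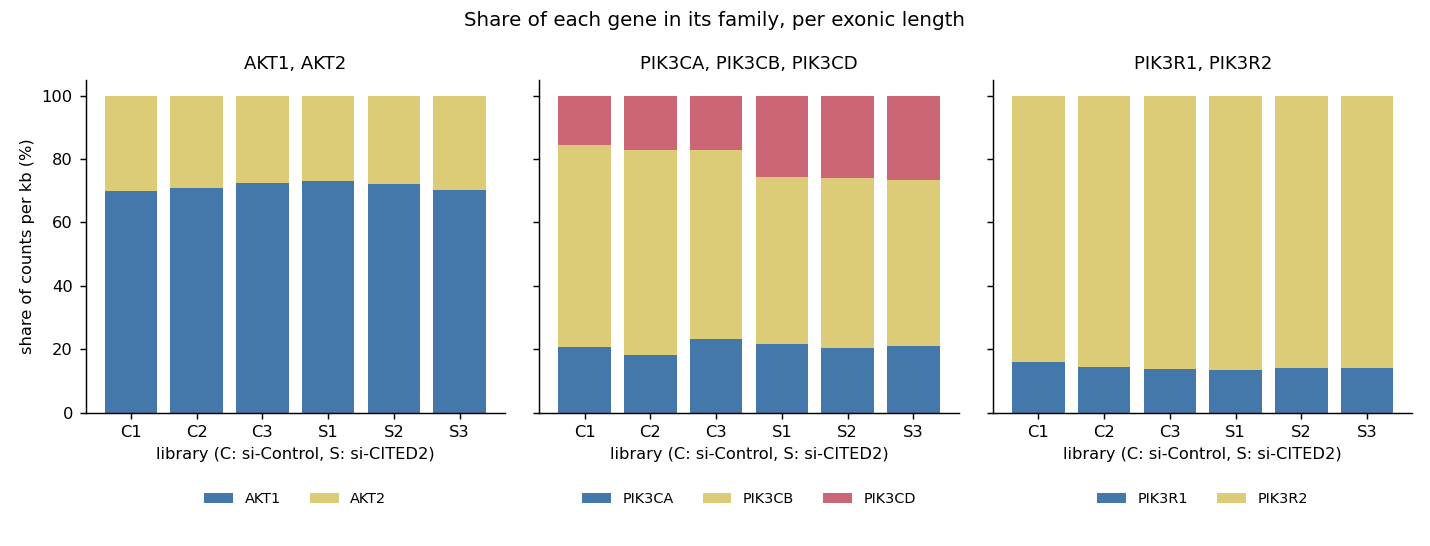
Share of each gene (vertical axis, % of the counts per exonic kb of its family) in each library, C1 to C3 being si-Control and S1 to S3 the libraries labelled si-CITED2. The PIK3CD share is 15.47% to 17.29% in si-Control and 25.77% to 26.51% in si-CITED2, and the AKT1 share overlaps between the groups.

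The regulatory subunits p85α (PIK3R1) and p85β (PIK3R2) hold the catalytic subunits inactive and dock them to phosphorylated receptors. PIK3R2, on chromosome 19 (18153118 to 18170540), was counted at 2046.9, 1972.5 and 2108.5 in si-Control and at 2403.0, 2350.5 and 2213.1 in the libraries labelled si-CITED2. The groups did not overlap, though si-CITED2 replicate 3 came close to the controls. PIK3R2 rose by a log2 fold change of 0.19 (SE 0.05, 95% interval 0.07 to 0.30, adjusted p = 0.024 by edgeR). The call was lost without si-Control replicate 2 (0.16, adjusted p = 0.121 by edgeR), si-CITED2 replicate 1 (0.16, adjusted p = 0.079) or si-CITED2 replicate 2 (0.17, adjusted p = 0.105). In GENCODE 29, 97.9% of its 50-base windows also lie in transcripts of other genes, mainly the overlapping AC007192.1 on the same strand, so its count is uncertain.

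PIK3R1, on chromosome 5 (68215720 to 68301821), was counted at 747.5, 632.8 and 638.9 in si-Control and at 703.1, 730.9 and 695.7 in the libraries labelled si-CITED2. The control range enclosed the other group (log2 fold change 0.08, SE 0.08, 95% interval -0.09 to 0.24, adjusted p = 0.569 by edgeR). PIK3R1 over PIK3R2 was 0.3652, 0.3208 and 0.303 in si-Control and 0.2926, 0.311 and 0.3144 in the libraries labelled si-CITED2, with overlap (exact permutation p = 0.4, adjusted p = 0.5 over 4 ratios). Per exonic length PIK3R2 held 85.3% ± 1.2 (SD, n = 3) and 86.2% ± 0.5 of the counts of the pair, with the PIK3R2 count uncertain as stated above.

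PHLPP1, the phosphatase that dephosphorylates the tail of AKT, lies on chromosome 18 (62715450 to 62980433). Its raw counts were 563, 590 and 412 in si-Control and 326, 389 and 341 in the libraries labelled si-CITED2. The normalised counts were 500.4, 475.0 and 484.8 against 395.9, 371.7 and 373.6, so that each control value exceeded every si-CITED2 value. The mean fell from 486.7 ± 12.8 (SD, n = 3) to 380.4 ± 13.4 (SD, n = 3), a log2 fold change of -0.36 (SE 0.08, 95% interval -0.53 to -0.19, adjusted p = 0.0048 by edgeR). Of the genes tested, 6.8% had a larger fall. Leaving out each library in turn gave -0.39 to -0.34, called in 6 of 6 fits. Scaled to GAPDH, which moves the median of all genes by 0.18, its value was -0.17 and not called (adjusted p = 0.287 by edgeR).

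Per exonic kilobase, AKT1 was the most abundant of the 9 members in both groups (859.3 to 892.5 normalised counts per kb in si-Control and 851.3 to 929.5 in the libraries labelled si-CITED2). PIK3R2 followed (485.5 to 519.0 and 544.7 to 591.4), then AKT2 (333.6 to 370.7 and 342.9 to 361.5) and PIK3CB (261.4 to 295.2 and 264.9 to 280.8). None of these 4 ranges overlapped its neighbour in either group. The ranges hold only the spread between libraries, and the counts of PIK3R2 and PDPK1 are uncertain, as stated above. The level of PIK3CA is uncertain too, since KCNMB3 on the other strand shares 3403 of its 9176 exonic bases and the use of strand is not given. In si-Control, PDPK1 came next (118.0 to 137.7), and below it PIK3CA (82.4 to 101.8) and PIK3R1 (81.6 to 96.3) overlapped, while PHLPP1 (74.3 to 78.3) and PIK3CD (71.6 to 77.6) overlapped at the bottom. In the libraries labelled si-CITED2, PIK3CD (129.7 to 140.8) overlapped PDPK1 (115.2 to 131.7), and PIK3CA (105.9 to 110.8), PIK3R1 (89.7 to 94.2) and PHLPP1 (58.2 to 61.9) were set apart from each other.

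The genes whose log2 level over the 6 libraries was closest to that of a called member, by the root mean square difference of centred log2 CPM, were EFNA1 (0.0272) and MYO10 (0.0347) for PIK3CD. For PIK3R2 they were MAPK13 (0.0211) and CREB1 (0.0216), and for PHLPP1 they were LMNA (0.0152) and L3MBTL2 (0.0264). The measure includes the difference between the groups, so it favours genes with a like fold change. In the order named, the log2 fold changes were 0.86, 0.83, 0.20, 0.21, -0.36 and -0.34. A link between these genes and the members was not tested.

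The rest of the pathway was described by 8 lists with 92 genes, of which 86 passed the filter. Among these 16 were higher and 9 lower in the libraries labelled si-CITED2, or 29.1%, against 17.4% of all genes, with a median log2 fold change of 0.01. The lists were chosen with earlier results of these data known, and they include CITED2 itself. The 2 shares are therefore a description and no test of the pathway. Leaving out a library gave 13 to 15 higher and 6 to 11 lower. By list, the share called ran from 14.3% (direct substrates of AKT) to 58.8% (genes induced by FOXO factors). In each list the 3 called genes with the largest change are named, and others were named after their values were seen.

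Of the other PI3-kinase subunits, 1 of 6 tested was called. PIK3R5, a regulatory subunit of p110γ, was higher (84.4, 48.3 and 61.2 normalised counts against 123.9, 112.7 and 104.1, log2 fold change 0.81, SE 0.19, adjusted p = 0.0075 by edgeR). PIK3C2A, PIK3C2B, PIK3C3, PIK3R3 and PIK3R4 had log2 fold changes of -0.04 to 0.23, and the list's median was 0.09. Of 7 other kinases of the AGC group, 1 was higher and 1 lower, with a median of 0.00. SGK1, a kinase related to AKT, was counted at 120.0, 120.8 and 97.7 in si-Control and at 386.1, 313.4 and 329.8 in the libraries labelled si-CITED2, a log2 fold change of 1.59 (SE 0.13, adjusted p = 1.10e-07 by edgeR). SGK2 fell from 50.5 ± 6.3 to 25.7 ± 5.0 (SD, n = 3; log2 fold change -0.98), a call lost without si-Control replicate 2 (-0.87, adjusted p = 0.057 by edgeR).

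Of 14 receptors and adaptors upstream of PI3-kinase, 2 were higher and 2 lower, with a median of 0.03. IGF1R, the receptor of insulin-like growth factors, rose from 3521.2 ± 66.7 to 5038.6 ± 208.9 (SD, n = 3; log2 fold change 0.52, adjusted p = 1.02e-06 by edgeR). EGFR, the epidermal growth factor receptor, rose from 8339.6 ± 748.7 to 10686.3 ± 407.2 (0.36, adjusted p = 4.26e-04 by edgeR). IRS2, an adaptor of the insulin receptor, fell from 560.3 ± 8.0 to 415.8 ± 19.6 (-0.43, adjusted p = 7.57e-04 by edgeR), and the receptor ERBB3 fell from 1163.4 ± 22.3 to 935.3 ± 33.7 (-0.31). IRS1, MET, ERBB2 and INSR, with log2 fold changes of -0.19, 0.04, -0.02 and -0.01, were not called.

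Of 11 phosphatases tested, 2 were called, both higher, with a median of 0.01. INPP4B, which removes a phosphate from PI(3,4)P2, rose from 104.1 ± 9.7 to 204.3 ± 33.6 (SD, n = 3; log2 fold change 0.98, adjusted p = 1.54e-04 by edgeR). INPPL1, which encodes the lipid phosphatase SHIP2, was also called (0.27), but in only 1 of 6 fits that left out a library (0.20 to 0.33; it stayed called without si-Control replicate 3). PHLPP2 (-0.17, SE 0.08) was not called (adjusted p = 0.202 by edgeR). Of 6 other inhibitors, 2 were higher and 1 lower, with a median of 0.02. PIK3IP1, a membrane protein that binds and inhibits PI3-kinase, was counted at 14.2, 16.1 and 23.5 in si-Control and at 89.9, 102.2 and 75.6 in the libraries labelled si-CITED2, a log2 fold change of 2.34 (SE 0.24, adjusted p = 2.86e-06 by edgeR). Of the tribbles pseudokinases, TRIB1 rose from 202.5 ± 24.7 to 442.4 ± 33 (1.13) and TRIB3, which can bind AKT, fell from 795.5 ± 40.0 to 644.4 ± 17.7 (-0.30, adjusted p = 0.0050 by edgeR).

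**Figure D4:**
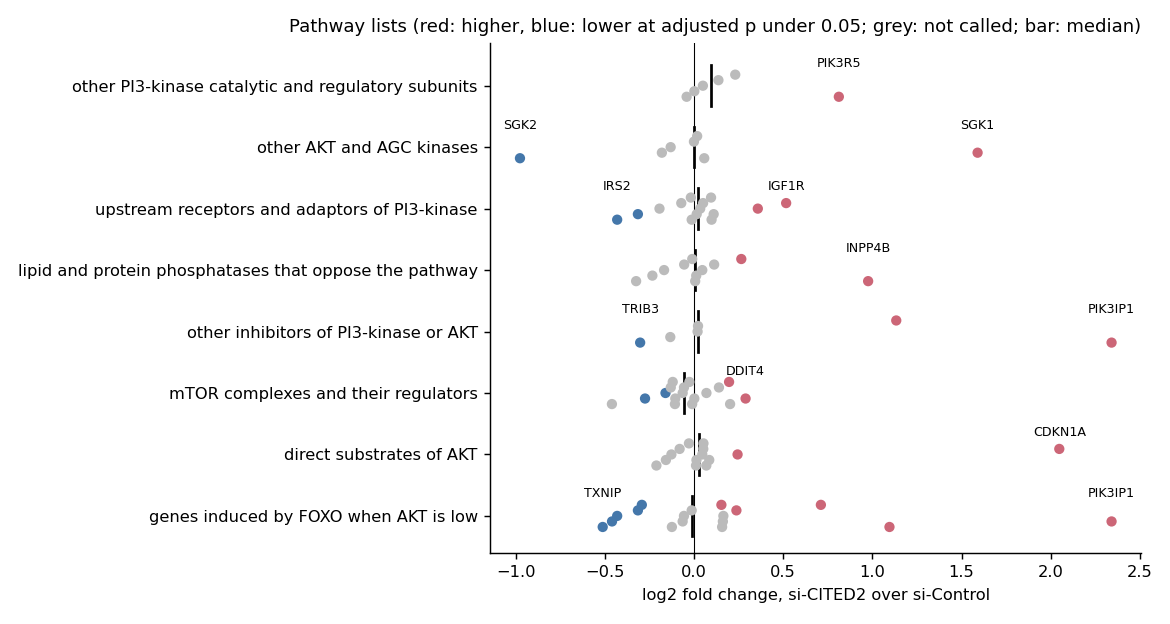
Log2 fold change (horizontal axis, libraries labelled si-CITED2 over si-Control) of every tested gene of the 8 pathway lists, coloured where the adjusted p was under 0.05, with the list's median as a bar. The medians lie between -0.06 and 0.09, and PIK3IP1 (2.34), CDKN1A (2.05) and SGK1 (1.59) stand farthest to the right.

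Of 17 tested genes of the mTOR complexes and their regulators, 2 were higher and 2 lower, with a median of -0.06. DDIT4, an inhibitor of mTOR complex 1 that responds to stress, rose from 1166.0 ± 63.1 to 1428.7 ± 88.7 (SD, n = 3; log2 fold change 0.29, adjusted p = 0.0043 by edgeR). MAPKAP1, a subunit of mTOR complex 2, rose by 0.20, and MLST8, a subunit of both complexes, fell by 0.27 on the log2 scale (adjusted p = 0.0065 and 0.0072 by edgeR). RPTOR, the defining subunit of complex 1, was also lower (-0.16), a call kept in 1 of 6 fits, that without si-CITED2 replicate 1 (-0.12 to -0.18 over the 6 fits). MTOR (-0.10, SE 0.05) and RICTOR (0.14, SE 0.06) were not called.

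Of 14 tested genes whose proteins AKT phosphorylates, 2 were called, both higher, with a median of 0.03. CDKN1A, the CDK inhibitor p21, was counted at 511.9, 510.4 and 476.5 in si-Control and at 2116.5, 2109.7 and 1984.1 in the libraries labelled si-CITED2, a log2 fold change of 2.05 (SE 0.06, adjusted p = 4.64e-13 by edgeR). GSK3B rose by 0.24 (adjusted p = 0.0067 by edgeR). FOXO1, FOXO3 and FOXO4, the forkhead factors that AKT keeps out of the nucleus, had log2 fold changes of -0.16, 0.01 and 0.07 and were not called.

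Of 17 genes commonly listed as induced by FOXO factors when AKT activity is low, 5 were higher, 5 lower and 7 not called, with a median of -0.01. The share called was 58.8%, against 17.4% of all genes, in a list chosen with earlier results of these data known. The higher ones were PIK3IP1 (2.34), the ubiquitin ligase FBXO32 (1.10, adjusted p = 3.15e-05 by edgeR), the cyclin CCNG2 (0.71, adjusted p = 0.0044), SOD2 (0.15) and CITED2 itself. The lower ones were TXNIP (-0.51, adjusted p = 0.0017 by edgeR), PDK4 (-0.46), IRS2, ERBB3 and the pro-apoptotic BCL2L11 (-0.29). The calls of SOD2, BCL2L11 and PDK4 held in 1, 2 and 4 of the 6 fits that left out a library (0.12 to 0.19, -0.35 to -0.21 and -0.49 to -0.42). SOD2 kept its call without si-Control replicate 2, BCL2L11 without si-Control replicate 1 or si-CITED2 replicate 3, and PDK4 lost it without si-Control replicate 3 or si-CITED2 replicate 2. The call of CITED2, the targeted gene, held in 2 of the 6 such fits. These genes, as a list, did not move in 1 direction. That balance depends on which genes the list holds. CDKN1A (2.05, called) and CDKN1B (-0.21, not called) were counted with the AKT substrates and not in this list.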

How the data were processed

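RNA was extracted with Trizol and libraries were made with a SMARTer mRNA-seq kit, per the labels. For each culture the authors deposited a file of whole-number read counts by gene symbol, not normalised. The submitters' processing notes name TopHat, edgeR and hg19; the counting program, annotation and use of strand are not given in the sources used here. The legend of the study states 3 independent experiments, and no pair of replicates was as close as sampling alone would make it (lowest chi-square per df 2.89).

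Where a symbol had several rows, that with the highest total was used (0.082% of counts left out). Groups were compared in R 4.3.3 with edgeR 4.0.16 (filterByExpr, TMM, quasi-likelihood test, Benjamini-Hochberg adjustment over 16314 genes, threshold 0.05), unpaired, since the study uses unpaired tests. The SE came from the F statistic. Log2 CPM used a prior count of 2. Lengths, positions and sequences came from GENCODE 29 (GRCh38); the files hold no coordinates. Ratios used exact permutation tests. Named were the 9 members, CITED2 and GAPDH, up to 3 called genes per list by size of change, and the 2 genes most like each called member; CTNNA1, CLSTN1, KCNMB3, the other reference genes and further list genes were added after values were seen. Members and lists were chosen with earlier results of these data known. Some genes are not reported here and were left out of the lists. Samples with the same replicate number showed no shared deviation (Pearson's r of deviations across genes -0.038, 0.034 and -0.011). This does not show whether cultures of the same number were run together. The edgeR and DESeq2 fits were tested on simulated counts with planted changes. Alternatives were the replicate block, DESeq2 1.42.0, library size without TMM, scaling to GAPDH, other filters, summed symbols and leaving out each library.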

Additional observations from a re-analysis of the deposited data

How the results depend on the processing

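PIK3CD kept its direction and call under all 13 alternatives. With the replicate block, PIK3CA passed (0.22, adjusted p = 0.047 by edgeR), as it did with no filter beyond a non-zero count (0.22), with at least 10 counts in every sample (0.22) and scaled to GAPDH (0.40); no other member or CITED2 changed its call under the block, which called 1154 genes lower and 1405 higher (1319 and 1527 without it). Over the pathway lists the block ended the calls of INPPL1, RPTOR, BCL2L11 and SOD2, DESeq2 those of INPPL1 and BCL2L11, library size without TMM those of INPPL1 and SOD2, and no filter beyond a non-zero count that of SOD2.

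Scaling to GAPDH moved the median of all genes to 0.181 and the share of called genes that were higher from 53.7% to 94.6%; AKT2 (0.16), PDPK1 (0.10) and PIK3CB (0.14) then changed sign without being called, PHLPP1 was weaker (-0.17), and 0 members were lower. By library size without TMM, CITED2 was not called (0.22). In place of GAPDH, ACTB, B2M, PGK1 and YWHAZ reversed the AKT1 ratio (-0.63, -0.030, -0.077 and -0.19).

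Leaving out each library gave -0.0028 to 0.063 for AKT1, -0.073 to 0.00035 for AKT2, 0.13 to 0.28 for PIK3CA, 0.16 to 0.22 for PIK3R2 and 0.17 to 0.29 for CITED2, with 1 to 3 members higher. AKT1 changed sign without si-CITED2 replicate 1 and AKT2 without si-Control replicate 1. The causes were not tested. Groups of 3 allow no permutation p below 0.1, so the ratios could not pass a threshold.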
